A study of Homo sapiens with 18 samples.

Results

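The 10 genes described here, SOX2, SOX4, SOX5, SOX6, SOX8, SOX9, SOX10, SOX11, SOX12 and SOX13, encode SOX transcription factors. They were chosen by symbol and make up 10 of the 58381 rows in each count table. RNA sequencing was carried out on 3 established Ewing sarcoma lines, TC-32, TC-71 and A673, which come from tumours of bone or soft tissue. All 3 lines carry the EWSR1::FLI1 fusion, which joins part of EWSR1 to the DNA-binding part of FLI1, a factor of the ETS family. Each line gave 3 libraries from cells transfected with 20 nM of siFLI1, a small interfering RNA against FLI1 that also reaches the fusion transcript, and 3 libraries from cells transfected with 20 nM of the negative control siNeg. A single siRNA was used against FLI1, so effects on other targets of that RNA cannot be told apart from loss of FLI1. A673 was grown in DMEM and the other lines in RPMI, and each line was deposited as a table of its own, so medium, table and line cannot be told apart. A time of 48 h is written in the column names of TC-32 and TC-71 but not in those of A673, so a difference in time could not be checked. The labels do not say that replicates were separate cultures, so the p-values measure the spread between these libraries, which may be technical. In bulk RNA of this kind, fewer cells with a transcript and less transcript per cell cannot be told apart.

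SOX proteins bind a short DNA motif in the minor groove through their HMG box, a domain related to that of SRY, bend the DNA, and act with partner factors that set which genes they control. They are divided by sequence. Group B1, here SOX2, is known for stem and neural progenitor cells. Group C, SOX4, SOX11 and SOX12, acts in progenitors of neurons and of mesenchyme. Group D, SOX5, SOX6 and SOX13, has no activation domain of its own and works through its partners. Group E, SOX8, SOX9 and SOX10, directs cartilage (SOX9) and the neural crest and its glia (SOX10). The cell of origin of Ewing sarcoma is debated, with mesenchymal and neural crest cells as candidates, and EWSR1::FLI1 is known to activate genes through runs of the ETS core GGAA.

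Library totals were 114564479 to 120993595 counts in A673, against 19685354 to 37234528 for TC-71 and 24102487 to 33669271 for TC-32. Levels are given in CPM, the count of a gene relative to the library total, scaled for composition by TMM within each line. FLI1 served as the check of the labels: on the log2 scale it fell by 2.09 in A673, by 1.47 in TC-71 and by 1.03 in TC-32, and no siFLI1 library reached the level of a siNeg library. Of 8 Ewing sarcoma markers, 8 fell in TC-32, 7 of the 7 tested fell in TC-71 and 8 fell in A673. The marker CD99 was at 0 in all TC-71 libraries, where 44 of the 45 genes with a second row for the Y copy of the pseudoautosomal region were at 0, so it does not check that line. Knockdown moved most of the transcriptome: 81.4% of 16227 genes tested passed the threshold in TC-32, 71.9% of 17085 in TC-71 and 71% of 18444 in A673. The threshold was an adjusted p of 0.05 in edgeR's quasi-likelihood test with Benjamini-Hochberg adjustment over all genes tested in a line.

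The DNA around these genes is shown first, because the fusion is known to bind GGAA repeats. The run upstream of SOX2 and the longest runs found, of 16 units, are printed. Uninterrupted runs of at least 8 GGAA units, read on either strand, were sought in the GRCh38 genome within 100 kb of each gene start and inside each gene. The run near SOX2 had 13 units, lay 38.3 kb upstream of the gene start and fell in an intron of the noncoding gene SOX2-OT. SOX6 held 6 runs in its introns, 366 to 717 kb from its start, of which the 2 longest had 16 units, and SOX5 held 1 intronic run of 16 units. Each is printed on the plus strand with the run in capitals and 40 bases on either side.
SOX2 upstream repeat, chr3:181673576-181673707: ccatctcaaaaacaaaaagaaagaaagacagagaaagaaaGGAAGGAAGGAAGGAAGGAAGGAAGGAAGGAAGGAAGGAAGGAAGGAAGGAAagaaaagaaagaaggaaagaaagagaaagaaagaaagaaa
SOX6 intronic repeat, chr11:16132230-16132373: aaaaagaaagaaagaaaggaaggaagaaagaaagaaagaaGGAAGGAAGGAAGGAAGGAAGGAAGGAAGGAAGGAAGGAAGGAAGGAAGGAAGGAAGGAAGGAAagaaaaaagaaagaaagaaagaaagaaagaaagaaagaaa
SOX6 intronic repeat, chr11:16373783-16373926: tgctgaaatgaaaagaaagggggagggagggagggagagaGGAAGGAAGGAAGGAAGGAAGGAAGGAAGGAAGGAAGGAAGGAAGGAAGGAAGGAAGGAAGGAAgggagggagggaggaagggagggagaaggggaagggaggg
SOX5 intronic repeat, chr12:24307413-24307556: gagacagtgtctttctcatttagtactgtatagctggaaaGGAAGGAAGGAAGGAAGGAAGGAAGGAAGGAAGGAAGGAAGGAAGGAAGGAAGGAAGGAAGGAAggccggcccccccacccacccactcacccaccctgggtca
Such runs are common, and a match is a description of the letters, not a site of binding. Of 20046 protein-coding genes, 22.5% had a run of at least 8 units within 100 kb of their start. Of the 10 SOX genes, 5 did (SOX2, SOX4, SOX11, SOX12 and SOX13). Of the 323 protein-coding genes that are at least 500 kb long, as SOX5 and SOX6 are, 58.8% held a run inside.

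RefSeq promoter windows (build GRCh38.p14) were matched for 6 of the 10 genes. SOX8, SOX9, SOX10 and SOX11 had no entry. The 250 bases upstream of SOX2, which fell in all 3 lines, and of SOX4, which moved in opposite directions between lines, are printed on their own strand with GGAA, or TTCC for the other strand, in capitals.
SOX2 promoter, chr3:181711675-181711924, plus strand: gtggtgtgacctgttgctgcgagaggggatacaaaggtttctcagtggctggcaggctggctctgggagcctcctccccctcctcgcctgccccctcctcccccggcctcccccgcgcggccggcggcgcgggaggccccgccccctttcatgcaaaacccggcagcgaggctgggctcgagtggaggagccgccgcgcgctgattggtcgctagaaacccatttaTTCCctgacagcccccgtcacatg
SOX4 promoter, chr6:21593501-21593750, plus strand: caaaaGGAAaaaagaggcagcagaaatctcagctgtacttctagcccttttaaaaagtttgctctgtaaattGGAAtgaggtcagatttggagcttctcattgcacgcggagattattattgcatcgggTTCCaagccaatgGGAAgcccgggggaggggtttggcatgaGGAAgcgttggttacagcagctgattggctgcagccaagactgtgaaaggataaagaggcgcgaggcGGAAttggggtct
The SOX2 window held 1 GGAA core and the SOX4 window held 6. At least 1 core was found in 92.7% of 35116 promoter windows of the same length, and at least 6 in 9.14%. A pair of adjacent cores, GGAAGGAA or TTCCTTCC, was found in 3.06% of all windows and in neither of these. The SOX motif ACAAT or ATTGT, found in 24.6% of all windows, was also in neither. All 5 windows of SOX6, which has several starts, and the SOX5 window held the SOX motif, and 1 of the SOX6 windows held the pair of cores. The SOX12 window, of a gene that fell in all 3 lines, held no GGAA core, and that of SOX13 held 5.

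The lines shared some of the SOX genes and differed in others. SOX2, SOX4, SOX6, SOX12 and SOX13 were above the limit of 3 counts in every library, as was SOX5, and were tested in each line. SOX9 and SOX11 were high in TC-32 and A673 and at or below that limit in TC-71. SOX8 was measured in TC-71 and A673 and lay near the limit in TC-32, while SOX10 was at 0 throughout. In TC-32, 6 of the 8 genes tested passed the threshold, 2 higher and 4 lower, against 81.4% of all genes. In TC-71 5 of 7 passed, 2 higher and 3 lower, against 71.9%, and in A673 9 of 9 passed, 4 higher and 5 lower, against 71%. The shares in TC-32 and TC-71 are close to the background. That in A673 is above it but rests on 9 genes, so nothing is read from it. Of the genes tested, 6 of 8 kept the libraries of the siRNAs apart in TC-32, against 82.5% of all genes, 6 of 7 did in TC-71, against 73.8%, and 9 of 9 did in A673, against 73.6%. The median log2 fold change of the tested SOX genes was -0.29 in A673, -0.23 in TC-71 and -0.14 in TC-32, where the medians of all genes tested were -0.01, 0.02 and 0.02.

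**Figure D1:**
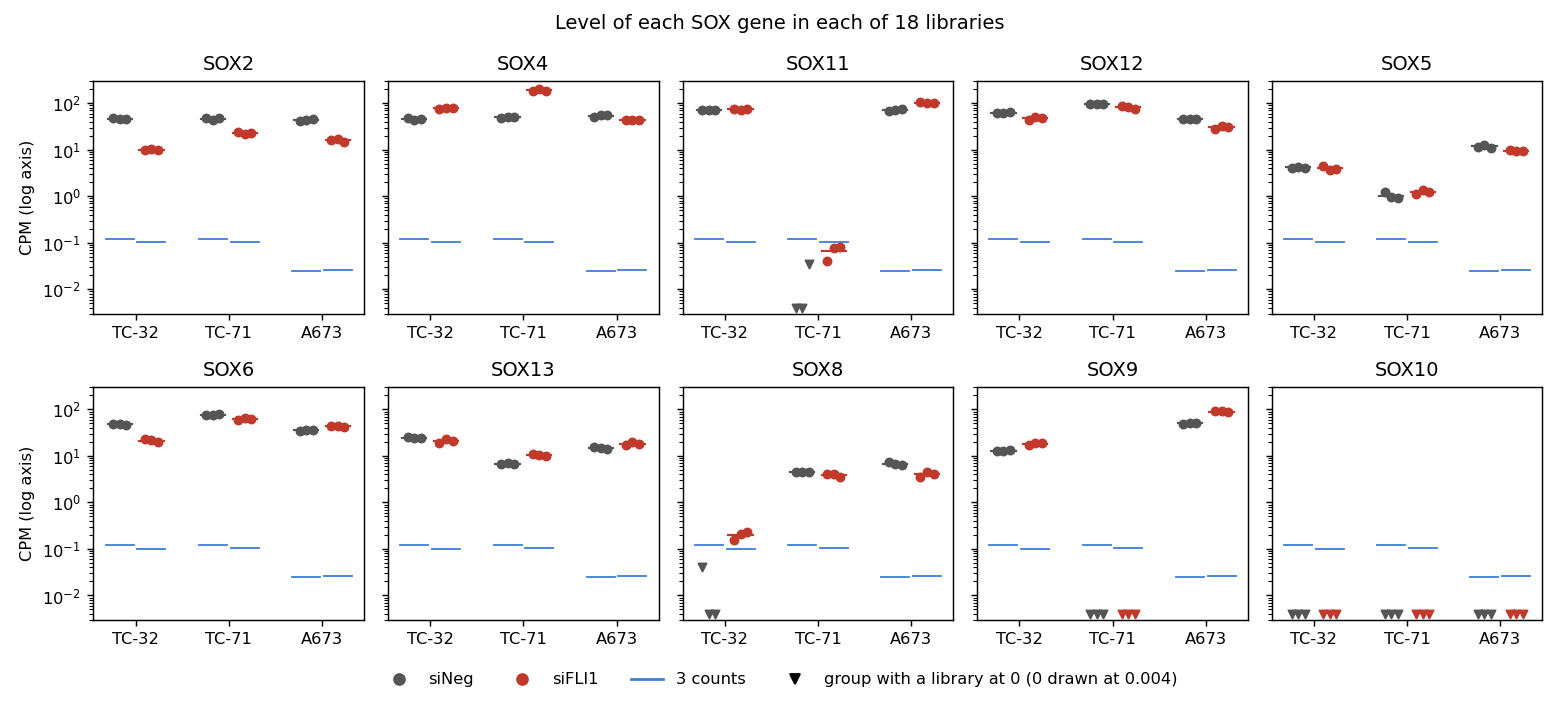
Level of each of the 10 SOX genes in CPM, on a log axis, in each of the 18 libraries (grey siNeg, red siFLI1, 3 libraries per group), with the group mean as a line and the level of 3 counts in blue. Triangles mark a group with at least 1 library at 0, drawn at 0.004. SOX2 was lower in every siFLI1 library of every line, SOX10 was at 0 in all libraries and SOX9 at 0 in TC-71.

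SOX2, the group B1 gene and a core factor of pluripotent and neural stem cells, fell in all 3 lines. It is a gene of a single exon (ENSG00000181449.3, GRCh38 chromosome 3, 181711925 to 181714436, plus strand) inside an intron of SOX2-OT, with no exon bases shared with another gene. In TC-32 the siNeg libraries held 47.4, 45.3 and 46.9 CPM and the siFLI1 libraries 10.0, 10.4 and 9.75 CPM. In TC-71 the values were 47.9, 43.1 and 47.3 CPM under siNeg and 23.7, 22.3 and 22.7 CPM under siFLI1. In A673 they were 41.5, 44.4 and 46.2 CPM under siNeg and 16.2, 16.7 and 15.03 CPM under siFLI1. The control libraries of all 3 lines lay close together, and every siFLI1 library lay below every control library of its line. The log2 fold change was -2.21 in TC-32 (SE 0.0690, edgeR adjusted p = 1.93e-19), a 4.62-fold fall. It was -1.01 in TC-71 (SE 0.0643, edgeR adjusted p = 1.53e-14) and -1.46 in A673 (SE 0.0535, edgeR adjusted p = 4.33e-13). Of all genes tested, 35.4% fell in A673, 35.0% in TC-71 and 40.1% in TC-32.

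The fall of SOX2 differed in size between each pair of lines. In one model of all 18 libraries, the edgeR interaction contrast gave a difference in log2 fold change, the first line minus the second, of -0.72 between TC-32 and A673 (SE 0.0877, adjusted p = 8.11e-09). It gave -1.20 between TC-32 and TC-71 (SE 0.0930, adjusted p = 3.22e-13) and -0.48 between A673 and TC-71 (SE 0.0819, adjusted p = 6.28e-06). The order of the falls, from TC-32 to A673 to TC-71, is not the order of the falls of FLI1 itself, which was largest in A673 and smallest in TC-32. A relation between the falls of SOX2 and FLI1 was not tested. Among all 19610 genes in that model, the share that differed was 51.6% for A673 against TC-71, 53.6% for TC-32 against TC-71 and 62.1% for TC-32 against A673.

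SOX4, a group C factor known for progenitor survival and for a role in TGF-beta responses, rose in TC-32 and TC-71 and fell in A673. It has a single exon (ENSG00000124766.6, chromosome 6, 21593751 to 21598619, plus strand), and 3.45% of its exon bases overlap a gene on the opposite strand. In TC-32 the siNeg libraries held 47.1, 44.6 and 44.7 CPM and the siFLI1 libraries 73.8, 80.4 and 79.4 CPM. In TC-71 they held 48.8, 50.7 and 49.4 CPM under siNeg and 182, 203 and 187 CPM under siFLI1. In A673 they held 51.04, 54.7 and 55.9 CPM under siNeg and 44.7, 44.1 and 43.8 CPM under siFLI1. The siNeg and siFLI1 libraries did not overlap in any line, but in A673 the siFLI1 libraries lay below. The log2 fold change was 0.78 in TC-32 (SE 0.0548, edgeR adjusted p = 2.52e-12) and 1.94 in TC-71 (SE 0.0508, edgeR adjusted p = 7.17e-24), against -0.29 in A673 (SE 0.0439, edgeR adjusted p = 2.29e-05). The rise in TC-71, 3.84-fold, was the largest rise among the SOX genes tested. The interaction contrast in edgeR gave a difference of -2.26 for A673 minus TC-71 (adjusted p = 4.51e-24), -1.17 for TC-32 minus TC-71 (adjusted p = 8.18e-16) and 1.09 for TC-32 minus A673 (adjusted p = 1.08e-15).

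SOX12, also of group C, fell in all 3 lines by less than SOX2. It has a single exon (ENSG00000177732.8, chromosome 20, 325552 to 330224, plus strand). In A673 its level went from 46.0 ± 0.291 to 30.7 ± 2.10 CPM (SD over 3 libraries, as for the other lines). The values were 97.6 ± 0.360 and 82.3 ± 5.30 CPM in TC-71, and 62.7 ± 1.77 and 47.7 ± 2.90 CPM in TC-32. The lowest siNeg library was above the highest siFLI1 library in each line. The log2 fold changes, in the same order of lines, were -0.58 (SE 0.0494, edgeR adjusted p = 2.16e-08), -0.25 (SE 0.0508, edgeR adjusted p = 7.55e-05) and -0.39 (SE 0.0570, edgeR adjusted p = 9.20e-07). The edgeR interaction contrast gave a larger fall in A673 than in TC-71 (difference -0.37, adjusted p = 6.62e-05) and than in TC-32 (TC-32 minus A673 0.22, adjusted p = 0.0129). The latter call is lost when only the 12 libraries of those lines are fitted (0.15, edgeR adjusted p = 0.0926). It did not pass for TC-32 against TC-71 (difference -0.15, SE 0.0768, edgeR adjusted p = 0.0976). Of the 10 genes, only SOX2, SOX4, SOX5, SOX6, SOX12 and SOX13 were tested in all 3 lines. Among these, SOX2 and SOX12 were the only genes that fell in all 3, and none rose in all 3. Of the 14233 genes tested in all 3 lines, 19.0% fell in all of them and 37.9% moved in the same direction in all.

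SOX11, the remaining group C gene, a factor of embryonic neurons, was abundant in TC-32 and A673 and all but undetected in TC-71. It has a single exon (ENSG00000176887.6, chromosome 2, 5692384 to 5701385, plus strand). In TC-32 the siNeg libraries held 72.2, 71.3 and 73.1 CPM and the siFLI1 libraries 73.8, 73.0 and 74.1 CPM. In A673 they held 68.1, 72.8 and 75.2 CPM under siNeg and 104.6, 101.1 and 99.4 CPM under siFLI1. In TC-71 the raw counts were 0, 0 and 1 under siNeg and 1, 2 and 3 under siFLI1, so the gene stayed out of the test and no fold is given. The libraries of TC-32 overlapped and those of A673 did not. SOX11 did not pass in TC-32 (log2 fold change 0.03, SE 0.0490, edgeR adjusted p = 0.595) and rose in A673 (0.50, SE 0.0434, edgeR adjusted p = 3.17e-08). The difference between these lines was -0.44 (SE 0.0659, edgeR interaction adjusted p = 4.10e-07). The 3 group C genes thus shared no direction: in A673 SOX11 rose while SOX4 and SOX12 fell, and in TC-71 SOX4 rose while SOX12 fell.

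**Figure D2:**
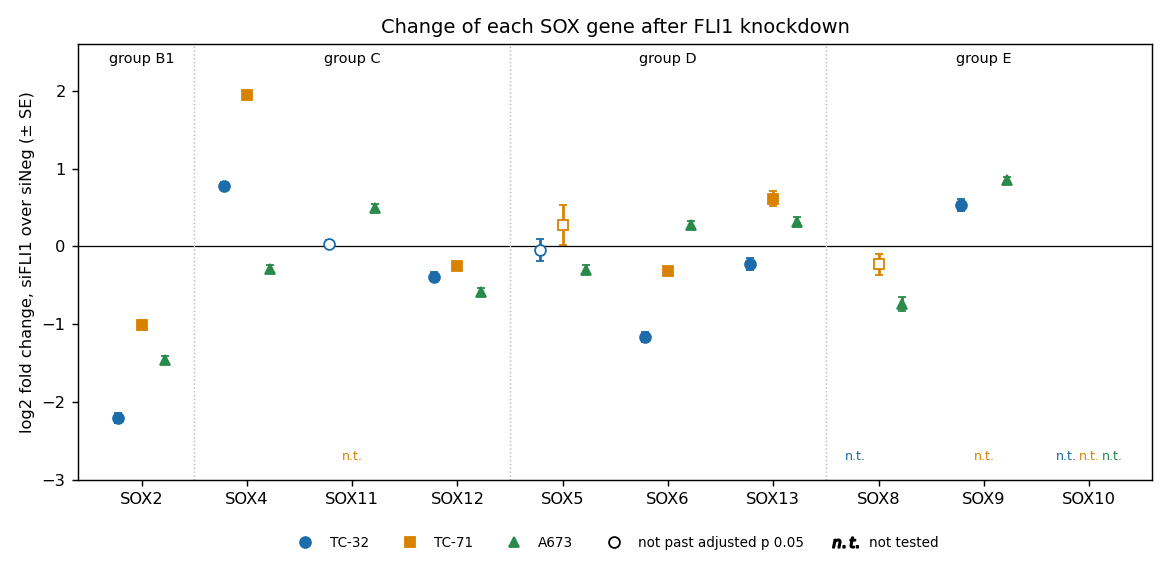
Log2 fold change of each SOX gene, siFLI1 over siNeg, with its SE, in TC-32 (circles), TC-71 (squares) and A673 (triangles), ordered by SOX group. Filled points passed an adjusted p of 0.05, open points did not, and n.t. marks genes not tested in a line. SOX2 and SOX12 lie below 0 in all 3 lines, while SOX4, SOX6 and SOX13 lie on both sides.

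SOX6, a long group D gene that works with SOX9 in cartilage and also acts in muscle and red cell development, fell in TC-32 and TC-71 and rose in A673. It spans chromosome 11 from 15966449 to 16739591 on the minus strand (ENSG00000110693.17), and 0.443% of its exon bases lie in the microRNA gene MIR6073. In TC-32 the siNeg libraries held 49.2, 48.6 and 46.6 CPM and the siFLI1 libraries 22.5, 21.5 and 20.2 CPM. In TC-71 they held 77.1, 75.2 and 80.3 CPM under siNeg and 59.3, 64.1 and 63.4 CPM under siFLI1. In A673 they held 35.1, 35.9 and 35.5 CPM under siNeg and 44.9, 43.4 and 41.0 CPM under siFLI1. All 3 lines kept the siRNAs apart, with the siFLI1 libraries below in TC-32 and TC-71 and above in A673. The log2 fold change was -1.17 in TC-32 (SE 0.0635, edgeR adjusted p = 1.38e-14) and -0.32 in TC-71 (SE 0.0519, edgeR adjusted p = 3.63e-06), against 0.28 in A673 (SE 0.0446, edgeR adjusted p = 3.35e-05). All 3 pairs of lines differed in the edgeR interaction contrast, by 0.56 for A673 minus TC-71 (adjusted p = 3.10e-08), -0.86 for TC-32 minus TC-71 (adjusted p = 1.69e-11) and -1.43 for TC-32 minus A673 (adjusted p = 9.43e-18). Its introns hold the 2 runs of 16 GGAA units printed above.

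SOX13, a group D gene known from T cells and the early nervous system, fell in TC-32 and rose in the other lines. It spans chromosome 1 from 204073115 to 204127743 on the plus strand (ENSG00000143842.14). It fell from 24.7 ± 0.635 to 21.0 ± 2.18 CPM in TC-32 (SD over 3 libraries; log2 fold change -0.23, SE 0.0762, edgeR adjusted p = 0.00834). It rose in TC-71, from 6.77 ± 0.289 to 10.3 ± 0.425 CPM (log2 fold change 0.61, SE 0.101, edgeR adjusted p = 3.65e-06), and in A673, from 14.7 ± 0.732 to 18.2 ± 1.39 CPM (log2 fold change 0.31, SE 0.0614, edgeR adjusted p = 0.000286). The libraries did not overlap in any line, although in TC-32 the highest siFLI1 library, at 23.1 CPM, came close to the lowest siNeg library, at 24.0 CPM. In the edgeR interaction contrast the effect differed by -0.34 for A673 minus TC-71 (adjusted p = 0.0154), by -0.85 for TC-32 minus TC-71 (adjusted p = 2.97e-07) and by -0.51 for TC-32 minus A673 (adjusted p = 2.57e-05). With only the 12 libraries of A673 and TC-71 fitted, their difference did not pass (-0.26, edgeR adjusted p = 0.055). Of the SOX genes tested in all 3 lines (SOX2, SOX4, SOX5, SOX6, SOX12 and SOX13), SOX4, SOX6 and SOX13 passed in all 3 with mixed directions. Of all genes tested in all 3, 13.7% did so. With so few SOX genes, nothing is read from this.

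SOX5, the partner of SOX6 in cartilage, was the lowest of the group D genes per kb of exon in each line. It spans chromosome 12 from 23529504 to 24562544 on the minus strand (ENSG00000134532.16). The siNeg and siFLI1 libraries overlapped in TC-32, from 4.04 to 4.30 against 3.74 to 4.48 CPM, and in TC-71, from 0.902 to 1.23 against 1.15 to 1.38 CPM. In A673 the siNeg libraries held 11.5, 12.6 and 11.1 CPM and the siFLI1 libraries 9.70, 9.46 and 9.51 CPM, with no overlap. The change did not pass in TC-32 (log2 fold change -0.05, SE 0.141, edgeR adjusted p = 0.754) or in TC-71 (0.28, SE 0.256, edgeR adjusted p = 0.332), and SOX5 fell in A673 (-0.30, SE 0.0610, edgeR adjusted p = 0.000388). Counts of SOX5 in TC-71 were 19 to 46 per library, against 1087 to 1539 in A673. The effect differed between A673 and TC-71 (difference -0.61, SE 0.212, edgeR interaction adjusted p = 0.0157). That call is lost without replicate 3 of siNeg in TC-71 (difference -0.51, edgeR adjusted p = 0.0693) and without the filter on low counts (-0.57, edgeR adjusted p = 0.0642). It did not pass for TC-32 against A673 (0.27, edgeR adjusted p = 0.0891) or TC-32 against TC-71 (-0.34, edgeR adjusted p = 0.233).

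SOX9, the group E gene that directs cartilage formation, rose in TC-32 and A673 and was at 0 in all 6 TC-71 libraries. It lies on chromosome 17 from 72121020 to 72126416 on the plus strand (ENSG00000125398.6) and overlaps the exons of no other gene. In TC-32 the siNeg libraries held 12.4, 12.5 and 13.1 CPM and the siFLI1 libraries 17.3, 19.1 and 18.5 CPM. In A673 they held 47.5, 52.1 and 50.3 CPM under siNeg and 90.1, 90.9 and 88.5 CPM under siFLI1. A count of 0 in the TC-71 libraries allows a level of up to 0.0808 to 0.152 CPM, depending on the library, for counting error only. In both lines that expressed the gene, every siFLI1 library was above every siNeg library. The log2 fold change was 0.53 in TC-32 (SE 0.0796, edgeR adjusted p = 1.55e-06) and 0.85 in A673 (SE 0.0427, edgeR adjusted p = 2.80e-11). The rise was larger in A673 (TC-32 minus A673 -0.29, SE 0.0853, edgeR interaction adjusted p = 0.00399). That difference did not pass with scaling by library size alone (-0.17, edgeR adjusted p = 0.0875). Of all genes tested, 41.3% rose in TC-32 and 35.6% in A673.

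SOX8, another group E gene, overlaps SOX9 and SOX10 in function in the embryo. It lies on chromosome 16 from 981770 to 986979 on the plus strand (ENSG00000005513.9). In A673 the siNeg libraries held 7.37, 6.71 and 6.41 CPM and the siFLI1 libraries 3.61, 4.61 and 4.02 CPM, a fall of 0.74 on the log2 scale (SE 0.0904, edgeR adjusted p = 1.77e-06). In TC-71 they held 4.42, 4.61 and 4.51 CPM under siNeg and 4.13, 4.05 and 3.45 CPM under siFLI1. The TC-71 libraries did not overlap, but the change did not pass (log2 fold change -0.23, SE 0.136, edgeR adjusted p = 0.129). The effects in A673 and TC-71 differed by -0.54 (SE 0.165, edgeR interaction adjusted p = 0.00589). In TC-32 the raw counts were 1, 0 and 0 under siNeg and 4, 7 and 7 under siFLI1. There the filter on low counts kept SOX8 out of the test; without that filter it passed as higher (log2 fold change 3.49, edgeR adjusted p = 0.00601), a fitted value that depends on the prior count. The levels in TC-32 under siFLI1, 0.153, 0.208 and 0.237 CPM, stayed more than an order of magnitude below those of both other lines.

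SOX10, the group E gene that defines neural crest glia and melanocytes, had no counts in any of the 18 libraries (ENSG00000100146.16, chromosome 22, 37970686 to 37987422, minus strand). The upper limit allowed by a count of 0 was 0.0246 to 0.0262 CPM in A673, the deepest line, and 0.0891 to 0.126 CPM in TC-32. Among the group E genes, TC-32 thus held SOX9 with traces of SOX8, TC-71 held SOX8 alone, and A673 held both.

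To set the genes side by side, levels were divided by the length of each gene's merged exons, giving CPM per kb. Tables were scaled separately, so these levels were not tested across lines. In siNeg cells SOX2 led in TC-32 with 18.5 ± 0.425 CPM per kb (SD, n = 3), followed by SOX12, SOX4 and SOX11 with 13.4, 9.34 and 8.02. SOX13 and SOX9 came next, with 3.32 and 3.22 CPM per kb and overlapping libraries, then SOX6 with 2.40 and SOX5 with 0.369. In TC-71 SOX12 led with 20.9 CPM per kb, ahead of SOX2 with 18.3, SOX4 with 10.2, SOX6 with 3.86, SOX8 with 1.01, SOX13 with 0.912 and SOX5 with 0.0913. In A673 SOX2 led with 17.5 CPM per kb, followed by SOX9 with 12.7, SOX4 with 11.1, SOX12 with 9.84, SOX11 with 8.002, SOX13 with 1.98, SOX6 with 1.77, SOX8 with 1.53 and SOX5 with 1.04. Per kb of exon, each line was led by genes of groups B1, C and, in A673, E, with group D below these leaders. SOX11 of group C was near 0 in TC-71, below every group D gene. Neighbours in the orders per kb had libraries that did not overlap, apart from SOX13 and SOX9 in TC-32 and the genes at or near 0. The orders depend on the division by exon length. In CPM, SOX11 led in TC-32 with 72.2, and SOX6 was above SOX2 in TC-71, at 77.5 against 46.1.

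After siFLI1 the first place per kb of exon changed in every line. In CPM it did not change in A673, where SOX11 led under siNeg and siFLI1, at 72.0 and 101.7 CPM. SOX4 led in TC-32 with 16.0 ± 0.725 CPM per kb and in TC-71 with 39.2 ± 2.29 CPM per kb (SD, n = 3), and SOX9 led in A673 with 22.9 ± 0.313 CPM per kb. Per kb, SOX2 moved from rank 1 to rank 5 in TC-32 and A673 and from rank 2 to rank 3 in TC-71. In A673 its level of 6.36 CPM per kb then overlapped that of SOX12, at 6.56, and SOX8 overlapped SOX5. Among all genes with a count, SOX2 per kb of exon stood above 91.6% in siNeg TC-32 cells and above 73.1% after siFLI1, and SOX4 in TC-71 went from above 84.8% to above 97.3%.

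Summed over the 10 genes, the level in TC-32 was 58.6 ± 0.612 CPM per kb under siNeg and 47.3 ± 1.81 under siFLI1 (SD, n = 3). The sums were 55.3 ± 0.811 and 71.4 ± 2.65 for TC-71, and 65.4 ± 2.21 and 62.5 ± 1.22 for A673. Libraries of the siRNAs overlapped in A673 and were apart in TC-32 and TC-71. Without division by exon length the A673 sums were 323 to 341 CPM under siNeg and 350 to 363 CPM under siFLI1, higher with no overlap, so the direction there depends on that scaling. The makeup of the sum moved more than the sum. SOX2 made up 31.6% of it in siNeg TC-32 cells and 8.46% after siFLI1, 33.2% and 12.8% in TC-71, and 26.8% and 10.2% in A673. Group C went from 52.5% to 72.6% in TC-32 and from 56.2% to 79.5% in TC-71, and was 44.2% and 43.1% in A673. Group E went from 21.8% to 38.0% in A673 and from 5.51% to 9.92% in TC-32, and from 1.83% to 1.22% in TC-71. Group D stayed between 6.46% and 10.4% in every group. These shares are a description with no test, and they depend on the division by exon length. A share can also rise because another gene of the sum fell.

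**Figure D3:**
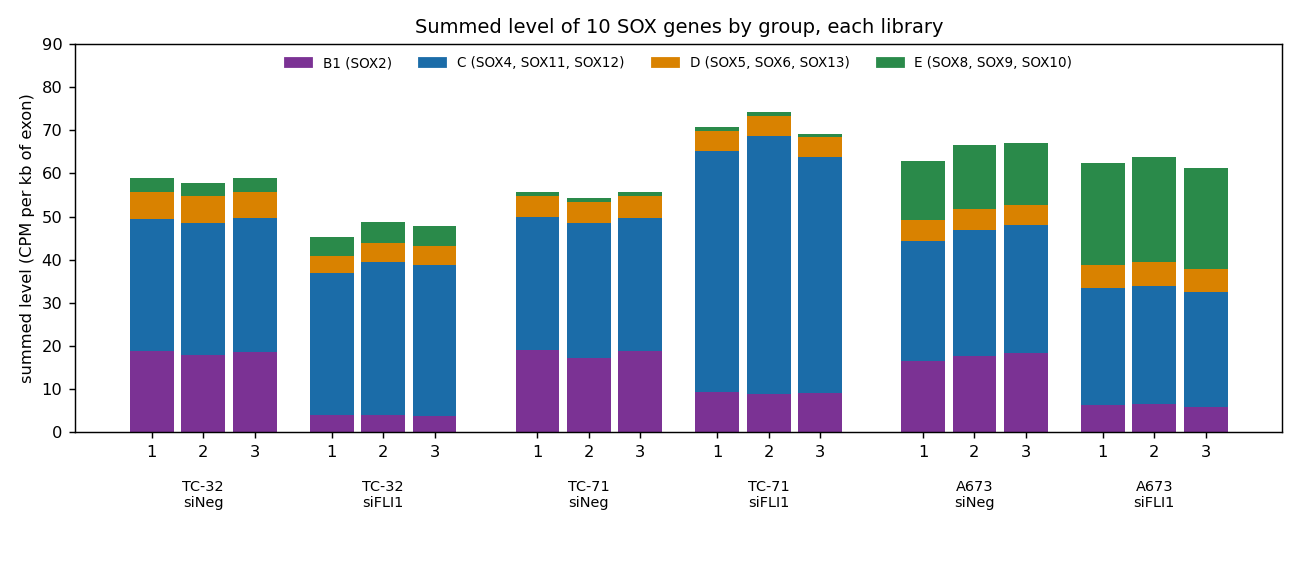
Summed level of the 10 SOX genes in CPM per kb of exon in each of the 18 libraries (bars, replicates 1 to 3), divided by SOX group. The purple part, SOX2, was smaller in every siFLI1 library of every line, the blue group C part was larger in TC-32 and TC-71, and the green group E part was largest in siFLI1 A673 cells, at 38.0% of the sum.

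Counted over the genes in the 18-library model, the effect of siFLI1 differed for 8 of 9 SOX genes between TC-32 and A673, against 62.1% of all genes. It differed for 5 of 9 between TC-32 and TC-71, against 53.6%, and for 7 of 9 between A673 and TC-71, against 51.6%. Opposite calls in the single lines stood behind 3 of the first (SOX4, SOX6 and SOX13), 1 of the second (SOX13) and 2 of the third (SOX4 and SOX6). The differences of SOX8 that involve TC-32 rest on 1 count in siNeg cells, and SOX9 and SOX11 have no effect to compare in TC-71. Over the genes tested in both lines singly, the counts were 7 of 8 for TC-32 and A673, 4 of 6 for TC-32 and TC-71, and 7 of 7 for A673 and TC-71. The matching shares over all genes tested in both lines were not computed, so nothing is read from these counts.

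A further 9 genes of the SOX family were looked up to complete the family. SOX1, a group B1 gene and close relative of SOX2, was the strongest of them. In TC-32 it went from 104.2 ± 2.48 to 5.70 ± 0.589 CPM (SD over 3 libraries; log2 fold change -4.20, SE 0.0719, edgeR adjusted p = 1.75e-24), and it fell from 13.9 ± 0.153 to 1.87 ± 0.169 CPM in A673 (-2.89, SE 0.0752, edgeR adjusted p = 5.42e-15). Each TC-71 library held 0 or 1 count of SOX1. There SOX3, the other group B1 gene, fell from 4.72 ± 0.280 to 1.55 ± 0.114 CPM (-1.61, edgeR adjusted p = 3.92e-10), while it was not tested in the other lines. Each line thus held another group B1 gene beside SOX2, and that gene fell. Of the others, SOX21 rose in TC-71 (0.50, edgeR adjusted p = 0.0269), SOX15 rose in A673 from 0.116 to 0.377 CPM (1.69, edgeR adjusted p = 8.62e-05), and SOX7 and SOX18, genes of blood vessel development, fell in TC-71 by 0.94 and 0.67 on the log2 scale. SOX7 shares 39.4% of its exon bases with PINX1 on the same strand, so its reads are uncertain. The noncoding SOX2-OT, which encloses SOX2, fell from 0.570 to 0.257 CPM in TC-32 (-1.13, SE 0.402, edgeR adjusted p = 0.0123) and from 1.17 to 0.362 CPM in A673 (-1.69, SE 0.174, edgeR adjusted p = 2.38e-07). In TC-71 its change did not pass (-0.45, SE 0.310, edgeR adjusted p = 0.192).

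Cartilage genes, a list of 14 that SOX9, SOX5 and SOX6 are known to control, rose more often than they fell. Every rise or fall named in the lists passed the edgeR threshold given above. In TC-32 8 of the 9 tested rose and 1 fell, in TC-71 5 of 10 rose and 2 fell, and in A673 10 of 12 rose and 2 fell, where 41.3%, 36.8% and 35.6% of all genes tested rose and 40.1%, 35.0% and 35.4% fell. The list's median log2 fold change was 1.86, 0.41 and 1.03 in TC-32, TC-71 and A673. COL11A1, a fibrillar collagen of cartilage, rose in A673 from 0.950 ± 0.104 to 107.7 ± 5.15 CPM (6.82, SE 0.0720, edgeR adjusted p = 1.53e-19) and in TC-71 from 0.0755 ± 0.0552 to 12.1 ± 0.486 CPM (7.17, SE 0.241, edgeR adjusted p = 2.45e-21). The TC-71 siNeg libraries held 1, 1 and 4 counts of COL11A1, so the fitted value there starts near the floor and depends in part on the prior count. In TC-32 COL11A1 rose from a high level, 226.7 to 387.3 CPM (0.77). SOX9 was at 0 in TC-71, and its part in these changes was not tested. COL2A1, the main collagen of cartilage, rose in A673 from 1.53 to 4.12 CPM and in TC-32 from 0.243 to 1.21 CPM, and its change did not pass in TC-71. COMP, a cartilage matrix protein, rose most in TC-32, from 0.120 to 2.50 CPM. The largest falls were MATN1 in TC-32 (-0.76), SNORC in TC-71 (-1.68) and HAPLN1 in A673 (-3.05). The proteoglycan ACAN, a defining gene of cartilage, held at most 2 counts in any library. All cartilage genes summed to 254 to 258 CPM under siNeg and 480 to 505 under siFLI1 in TC-32, to 187 to 200 and 230 to 250 in TC-71, and to 38.3 to 42.5 and 171 to 192 in A673. A single gene made up a large part of these sums: COL11A1 in TC-32 and in siFLI1 A673 cells, and COL9A2 in TC-71, at 146.8 and 182.6 CPM.

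Neural crest and glial genes, 14 genes of the programme of SOX10, were split. In TC-32 4 of 9 tested rose and 3 fell, in TC-71 4 of 9 rose and 4 fell, and in A673 4 of 11 rose and 6 fell, with list medians of 0.32, 0.11 and -0.29. The shares of all genes that rose and fell are those given for the cartilage list. TFAP2B, a neural crest factor, was the largest fall in TC-32 (-3.19) and in TC-71 (-3.65), where siFLI1 libraries held 0 to 3 counts. NGFR, a receptor on neural crest cells, was the largest fall in A673, from 21.8 to 2.14 CPM (-3.35), but rose in TC-32 (0.32). EDNRB, an endothelin receptor, was the largest rise in A673, from 0.307 to 2.604 CPM, and in TC-32, from 1, 0 and 0 counts in the siNeg libraries to 15, 27 and 16 counts under siFLI1. SOX10 itself was at 0 in all of these libraries, and its part in these changes was not tested.

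The 12 partners of SOX2 and stem cell genes moved in both directions. In TC-32 6 of 10 tested fell and 3 rose, TC-71 had 4 falls and 1 rise of 6, and A673 had 4 falls and 3 rises of 8, where 40.1%, 35.0% and 35.4% of all genes fell and 41.3%, 36.8% and 35.6% rose. The list medians were -1.03, -0.68 and -0.32. The POU factors POU3F1 and POU3F2, which bind DNA together with SOX2 in neural progenitors, fell in all 3 lines. POU3F2 went from 12.5 to 3.22 CPM in A673 (-1.95), while TC-71 went from 56.1 to 16.2 (-1.80) and TC-32 from 126.7 to 17.1 (-2.89). POU3F1 fell by 2.13, 1.88 and 2.29 on the log2 scale in the same order of lines. NES, a filament of neural progenitors that SOX2 is known to activate, rose in all 3 lines, by 2.83 in A673, 0.76 in TC-71 and 1.05 in TC-32. POU5F1 rose in TC-32, to 0.596 CPM from 2 counts in each siNeg library, and KLF4 rose in A673 from 0.355 to 3.05 CPM. Of 10 genes linked to SOX4 and SOX11, 3 of 7 rose and 4 fell in TC-32, 4 of 9 rose and 3 fell in TC-71, and 2 of 6 rose and 3 fell in A673, with medians of -0.18, 0.02 and -0.03. With 6 to 9 genes tested and the same background, nothing is read from these counts. MAP2, a microtubule protein of neurons, was the largest rise in each line, at 4.31 in A673, 3.52 in TC-71 and 1.96 in TC-32. EZH2, a histone methyltransferase reported to depend on SOX4, fell by 1.16 in A673, 1.24 in TC-71 and 2.37 in TC-32. Its link to SOX4 was not tested. DCX, a neuronal protein, was the largest fall in TC-71 (-1.68) and rose in TC-32 (1.75).

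**Figure D4:**
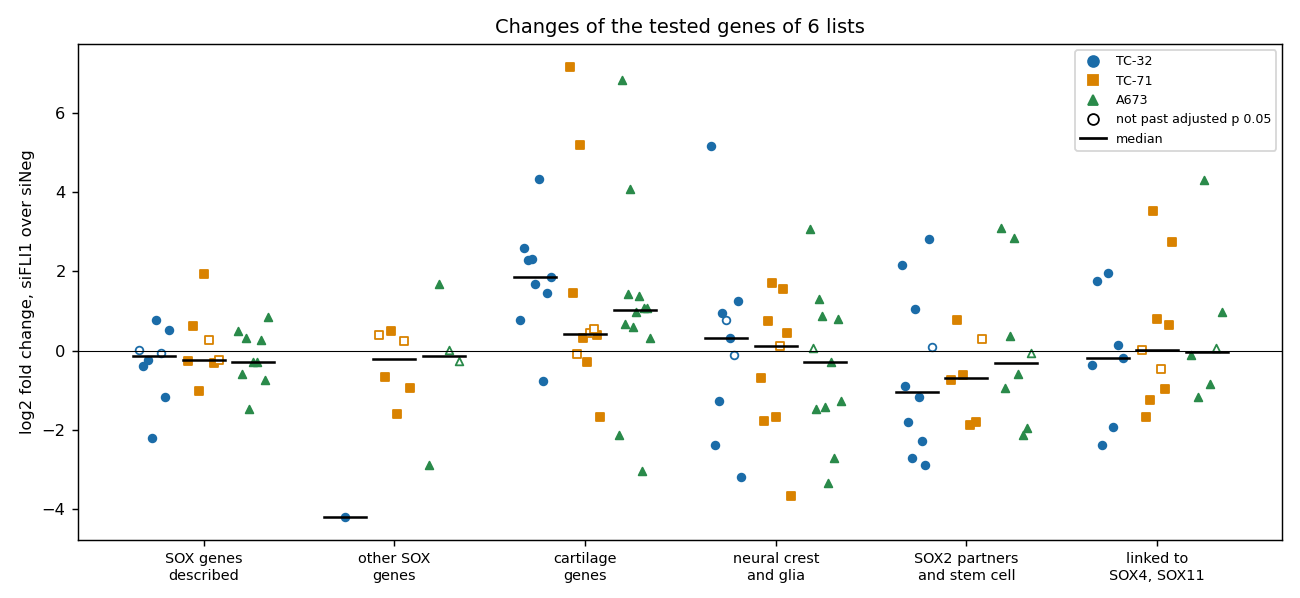
Log2 fold change, siFLI1 over siNeg, of each tested gene of 6 lists in TC-32 (circles), TC-71 (squares) and A673 (triangles), with the median of each list and line as a black bar. Filled points passed an adjusted p of 0.05. The cartilage medians of 1.86, 0.41 and 1.03 lie above 0 in every line, and the medians of the tested SOX genes lie between -0.29 and -0.14.

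Markers of other cell types were low or rose with siFLI1, and their part in the results was not tested. The 6 epithelial markers summed to 4.66 to 5.23 CPM under siNeg and 17.2 to 19.1 under siFLI1 in TC-32, to 23.2 to 25.4 and 54.7 to 56.9 in TC-71, and to 13.9 to 15.4 and 45.7 to 51.3 in A673. Of those tested, 3 of 4 rose and 1 (KRT5) fell in TC-32, 2 of 3 rose in TC-71 and 3 of 4 rose in A673, where KRT5 went from 0 to 13, 16 and 21 counts. CDH1 was the largest rise in TC-32 (4.74) and CLDN4 in TC-71 (1.77), and CLDN4 also rose in A673, from 0.183 to 20.9 CPM (6.83). These counts stand beside the 41.3%, 36.8% and 35.6% of all genes that rose in TC-32, TC-71 and A673. KRT8, which rose in all 3 lines, made up much of the epithelial sums, at 23.1 and 53.2 CPM in TC-71 and 14.4 and 27.4 CPM in A673. The change of EPCAM did not pass in TC-71 or A673, and KRT14 was tested in no line. Of 5 muscle markers, DES rose in TC-32 and A673, the list summed to at most 6.92 CPM in any library, and MYF5 was at 0 throughout. The 5 blood cell markers summed to at most 5.47 CPM, HBB was at 0 in every library, CD79A fell in all 3 lines and CD14 rose in A673 from 0.0944 to 0.256 CPM.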

How the data were processed

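Messenger RNA was sequenced from 18 libraries, 3 per siRNA in each of 3 lines, with a stranded kit per the labels' protocols. The authors' tables of TC-32 and A673 hold expected counts (named for RSEM), and the deposited table of TC-71 holds whole counts (named for Subread), both unscaled. Per the submitters' processing notes, which give no roles, the tools include cutadapt 4.4, STAR 2.7.3, featureCounts, Subread 2.0.3 and limma 3.38.3, and the build is GRCh38 (hg38). The strand setting and the annotation release are not given in the sources used here. The line ES-5838 and the siRNA siERG, named in the series text, are not analysed here.

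After rounding of the expected counts, a separate model was fitted per line with edgeR 4.0.16 in R 4.3.3 (filterByExpr by group, TMM, robust quasi-likelihood F-test), with Benjamini-Hochberg adjustment over all genes tested and calls at an adjusted p under 0.05. Log2 fold changes carry a prior count of 0.125, and standard errors come from unshrunken coefficients. Effects were compared between lines by interaction contrasts in one model of the 6 groups. Precision is set by library totals of 19685354 to 120993595. A count of 0 allows up to 3 counts, a limit that covers counting error only, since reads carry no molecular identifiers. Replicates differed by more than sampling noise (lowest chi-square per degree of freedom 2.45). Positions and merged exon lengths come from GENCODE release 44 (GRCh38), which holds 57754 of the 58336 identifiers. Genome sequence is GRCh38 and promoters are from RefSeq, read with Python 3.11.15. The fits were tested on simulated data in which few genes changed, unlike in these data, where most genes tested passed the threshold.

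The SOX genes, the other lists and the tests were chosen with earlier results of these data known, so none is independent evidence. Besides the 10 genes and FLI1, the text names from each list the gene called in a line with the largest rise and the largest fall there. Not every such gene is reported here. COL2A1, ACAN and the changes of a named gene in other lines were added after their values were seen. SOX7, SOX18, CD99, COL9A2, KRT8, EPCAM, KRT14, MYF5 and HBB are also named, though the rule does not select them. The alternatives tried were DESeq2 1.42.0, limma-voom with limma 3.58.1, scaling by RLE or by library size alone, unrounded values, testing without a filter or at a mean count of 10 or more, a block for the replicate number, each library left out in turn, the 12 libraries of the lines compared, and CPM without exon length.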

Additional observations from a re-analysis of the deposited data

Results flagged for a closer look

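The SOX genes below responded to siFLI1 to a different degree in a pair of lines, by the edgeR interaction contrast at an adjusted p under 0.05. Values are differences in log2 fold change, the first line minus the second. Between TC-32 and A673, the differences were -0.72 for SOX2, 1.09 for SOX4, -1.43 for SOX6, -0.29 for SOX9, -0.44 for SOX11, 0.22 for SOX12 and -0.51 for SOX13. Between TC-32 and TC-71, they were -1.20 for SOX2, -1.17 for SOX4, -0.86 for SOX6 and -0.85 for SOX13. Between A673 and TC-71, they were -0.48 for SOX2, -2.26 for SOX4, -0.61 for SOX5, 0.56 for SOX6, -0.54 for SOX8, -0.37 for SOX12 and -0.34 for SOX13. SOX8 also differed between TC-32 and A673 (4.47) and between TC-32 and TC-71 (3.93), fitted values that rest on 1 count in the siNeg libraries of TC-32 and depend on the prior count. SOX2, SOX4 and SOX6 differed in all 3 pairs of lines, as did SOX13 in the model of all 18 libraries. The calls of SOX9 and SOX12 for TC-32 against A673 and of SOX5 and SOX13 for A673 against TC-71 are each lost under an alternative, with the values given beside these genes above. Differences of this kind are common in these data, with 62.1%, 53.6% and 51.6% of all genes past the same threshold. Each line has a table of its own, and that of TC-71 is named for another counting tool than those of TC-32 and A673, so line and table cannot be told apart.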

How the results depend on the processing

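The SOX genes called numbered 9 in A673 and 5 in TC-71 under every alternative run, and 6 in TC-32, where the alternatives gave 6 to 7. Fits with the replicate number as a block gave 9, 5 and 6. Deviations of log2 CPM from the group mean were correlated between the siNeg and siFLI1 libraries of the same number. These correlations ran from -0.078 to 0.042, so the numbers show no pairing. The number of SOX genes whose effect differed was 8 (7 to 9) for TC-32 against A673, 5 (5 to 6) for TC-32 against TC-71 and 7 (6 to 7) for A673 against TC-71. Of 51 results on single genes, 43 kept direction and call under every alternative run. The change of SOX5 in TC-32, which did not pass, ran from -0.13 to 1.549e-05 when 1 library was left out, with the reversal without the second siFLI1 library. The ratio of the summed SOX level, siFLI1 over siNeg, was 0.808 in TC-32 and 0.866 without division by exon length. In A673 it was 0.955, but 1.07 without exon length and 0.889 with library size alone, so its direction depends on the length scaling. In TC-71 it was 1.29 (1.27 to 1.32). Library size alone also shifted the A673 median over all genes from -0.01 to -0.11 (log2), and SOX6 there from 0.28 to 0.18. With it, the edgeR interaction of SOX5 for TC-32 against A673 passed (0.39, adjusted p = 0.0145). It also passed with a mean of at least 10 counts (0.31, edgeR adjusted p = 0.0477). With the 12 libraries of the lines compared, the edgeR interactions of SOX12 for TC-32 against A673 (0.15, adjusted p = 0.0926) and of SOX13 for A673 against TC-71 (-0.26, adjusted p = 0.055) did not pass. Without the third TC-71 siFLI1 library, SOX12 passed for TC-32 against TC-71 (-0.21, edgeR adjusted p = 0.0275). The cause of these changes was not tested. Unrounded counts could not be used for TC-71, whose counts are whole. SOX8 in TC-32, SOX9 and SOX11 in TC-71 and SOX10 in every line had counts at or near the floor of 3, where a change is hard to detect at this depth.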

Other observations

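The cartilage list was looked at again, gene by gene. In TC-71, where SOX9 was at 0 in all 6 libraries, 5 of the 10 cartilage genes tested rose, 2 fell and 3 did not pass. Of all genes tested there, 36.8% rose and 35.0% fell. A link of these changes to SOX9 was not tested. The rises included COL11A2, from 6.20 ± 0.159 to 17.1 ± 1.23 CPM (SD, n = 3 per group; log2 fold change 1.46, edgeR adjusted p = 3.30e-14). COL9A2 went from 146.8 ± 4.83 to 182.6 ± 6.72 CPM (0.31, edgeR adjusted p = 3.68e-07). COL9A2 was far lower in the other lines, at 0.218 CPM in TC-32 and 5.23 CPM in A673 under siNeg, and rose in both. COL9A3, a partner chain in type IX collagen, rose in TC-32 (1.68, edgeR adjusted p = 4.12e-15) and A673 (0.99, edgeR adjusted p = 9.39e-10) and fell in TC-71 (-0.28, edgeR adjusted p = 0.0117). CNMD, which encodes a cartilage protein that inhibits vessel growth, fell in A673 from 1.55 to 0.351 CPM (-2.14, edgeR adjusted p = 4.98e-09), where most of the list rose. These genes were chosen after their values were seen.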
